A study of Mus musculus with 10 samples.

Results

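The class II antigen-presentation genes measured here are Ciita, H2-Aa, H2-Ab1, H2-Eb1, Cd74, H2-DMa and H2-DMb1, 7 genes chosen by name of 15341 in the table of heart transcripts. All 7 passed the filter on low counts, which left 12992 genes for testing. The hearts came from 10 male mice of an age not given in the sources used here. The 5 plasma S1Pless animals had the genotype Sphk1f/-:Sphk2f/-:Mx1Cre+, and the 5 littermate controls were Sphk1f/-:Sphk2f/-:Mx1Cre-, so both groups carried 1 floxed and 1 null allele of each sphingosine kinase gene and differed by the Cre transgene. These kinases make sphingosine 1-phosphate (S1P), a lipid messenger that acts on vessels, heart muscle and immune cells. Mx1-Cre is driven by an interferon-inducible promoter and is active in blood-forming cells and in some other cell types, so S1Pless animals may lose the kinases in cells of the heart as well as S1P in plasma. The comparison addresses what differs in the heart between animals with and without this Cre.

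MHC class II molecules display peptides from proteins taken up by a cell to CD4+ T cells. An alpha and a beta chain pair in the endoplasmic reticulum with the invariant chain CD74, which blocks the groove until proteases such as cathepsin S degrade it. The H2-DM dimer then exchanges the remaining CD74 fragment for an antigenic peptide. Transcription of the genes for the chains, CD74 and H2-DM depends on CIITA, a co-activator that does not itself bind DNA. It docks on factors held at the class II promoters, namely RFX at the X box and NF-Y at the Y box. In the heart, class II genes are known from resident macrophages, dendritic cells and B cells, and interferon gamma can induce Ciita in other cells.

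The promoters are shown because CIITA is known to act through factors bound there. Of the 7 genes, 4 matched an entry of RefSeq windows of 300 bases (GRCm38.p6, from 250 bases before to 50 after a start). Below are 90 bases of 3 of them, all on chromosome 17, and of H2-DMb2, the near copy of H2-DMb1, written 5′ to 3′ on the gene's strand. Capitals mark the X box core, searched as AACNGATG, and the Y box core, searched as GATTGG, each on the gene's strand. Matches on the other strand are not marked.
H2-Aa, chr17:34287844-34287933, minus strand: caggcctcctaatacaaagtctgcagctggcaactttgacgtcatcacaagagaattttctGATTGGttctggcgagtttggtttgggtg
H2-Eb1, chr17:34305757-34305846, plus strand: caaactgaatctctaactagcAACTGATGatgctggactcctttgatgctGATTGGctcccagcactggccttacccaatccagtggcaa
H2-DMb1, chr17:34153081-34153170, plus strand: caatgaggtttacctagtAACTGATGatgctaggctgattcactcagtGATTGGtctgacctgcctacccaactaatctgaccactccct
H2-DMb2, chr17:34145109-34145198, plus strand: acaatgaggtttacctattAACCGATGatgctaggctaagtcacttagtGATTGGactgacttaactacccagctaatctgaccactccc

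The 2 cores followed each other in this order in H2-Eb1 and H2-DMb1, with starts 29 and 30 bases apart, and they did not overlap. In H2-Aa the search of the gene's strand found GATTGG but not the letters AACNGATG. For H2-DMa, which has 2 windows, 1 held GATTGG far upstream on the gene's strand and neither held the pair. All 32851 windows were searched on both strands, and GATTGG was in 16.1% and AACNGATG in 2.32%. The pair at this spacing was in 5 windows (0.0152%), those of H2-Eb1, H2-Eb2, H2-DMb1, H2-DMb2 and BC051142. These letters were chosen after the windows were seen, and the spacing limits, 29 and 30 bases, are those of the class II pairs found. The count of 5 windows is therefore no test of how rare the pair is. A match describes the sequence and is not a measured binding site.

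Library totals ranged from 17204491 to 20202283 counts among controls and from 16354071 to 20832566 among S1Pless hearts, so 1 read was worth 0.0451 to 0.0658 CPM (a count divided by the TMM-scaled library total, times 1e6). The markers that define the labelled tissue, 8 heart muscle genes, summed to 53850 to 62820 CPM in controls and 44570 to 56020 CPM in S1Pless hearts. None of the 8 passed the test, and none had a positive log2 fold change (median -0.18). With DESeq2, Pln passed as lower. The targeted genes were lower without passing the test, with Sphk1 at 1.21 ± 0.36 CPM in controls and 0.723 ± 0.21 in S1Pless hearts (mean ± SD, n = 5 each, adjusted p = 0.168) and Sphk2 at 20.2 ± 2.30 and 16.8 ± 1.95 CPM (adjusted p = 0.18). Whole-heart counts include every cell in which Cre does not act. The labels list every heart as its own sample and pair no animals.

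All 7 class II genes were higher in S1Pless hearts by edgeR's quasi-likelihood test (Benjamini-Hochberg adjusted p below 0.05 over all genes). Among all genes tested, 442 rose, or 3.4%, and 41 fell, or 0.316%. Fold changes of the 7 genes ran from 2.04 for H2-DMa to 2.51 for Ciita with a median log2 fold change of 1.25, against a median of -0.01 over all genes tested. In 6 of the 7 every S1Pless heart lay above every control, as in 4.53% of all genes tested. In whole-heart RNA, more cells that express a gene and more RNA per cell cannot be told apart.

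The count of 7 rests on few hearts. Without control heart 3, 2 of the 7 passed (Ciita and H2-Ab1), where 0.903% of all genes rose, and without control heart 4, 3 passed, where 0.931% rose, while log2 fold changes of the 7 genes stayed between 0.96 and 1.30. Only Ciita passed with neighbouring title numbers as a block (0.616% of all genes rose) or with the library's haemoglobin share as a covariate (0.146%). Haemoglobin took 0.00304 to 0.0121% of each control library and 0.00744 to 0.0172% of each S1Pless library, and the part of this share in the result was not tested further.

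Ciita, the co-activator, was measured with the fewest reads per kilobase of the 7. Control hearts 1 to 5 had 2.30, 3.33, 2.77, 2.56 and 4.13 CPM, and S1Pless hearts 1 to 5 had 7.81, 5.10, 7.72, 6.85 and 10.57 CPM. The lowest S1Pless heart stood above the highest control, and heart 5 was highest in both groups. These levels rest on 35 to 74 reads in controls and 102 to 223 in S1Pless hearts. Its log2 fold change was 1.33 ± 0.20 (SE, adjusted p = 0.00739), a 2.51-fold difference. By p-value it ranked 25 of 12992 genes, ahead of the other 6. It passed the test in each of the 11 other fits and without any single heart, with adjusted p up to 0.0467. On the opposite strand Ciita overlaps Dexi, which stood at 38 ± 3.82 and 37.5 ± 1.30 CPM (log2 fold change -0.02 ± 0.08, adjusted p = 0.915).

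H2-Aa encodes the alpha chain of the I-A molecule. Its level was 78.5, 54.1, 57.8, 39.3 and 69.6 CPM in control hearts 1 to 5 and 188, 93.9, 131, 91.5 and 213 CPM in S1Pless hearts 1 to 5. Control heart 4 was lowest, and S1Pless hearts 1 and 5 stood well above S1Pless hearts 2 and 4. No S1Pless value fell within the control range. The log2 fold change was 1.26 ± 0.25 (SE, adjusted p = 0.0192).

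H2-Ab1 encodes the partner of H2-Aa, the I-A beta chain. It had 60.9, 42.3, 50.4, 36.8 and 61.7 CPM in control hearts 1 to 5, and 164, 79.5, 137, 77.1 and 163 CPM in S1Pless hearts 1 to 5. The groups were again apart, and the same pair of S1Pless hearts was high. Its log2 fold change of 1.30 ± 0.23 (SE, adjusted p = 0.0139) passed without any single heart (adjusted p up to 0.0445), as did that of Ciita and of no other gene of the 7.

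H2-Eb1, the beta chain of the I-E molecule, carries the paired X and Y box letters shown above. Control hearts 1 to 5 gave 72.6, 52.2, 53.0, 35.0 and 67.9 CPM and S1Pless hearts 1 to 5 gave 171, 84.5, 141, 81.1 and 192 CPM. The groups did not overlap, and control heart 4 was lowest. The log2 fold change was 1.25 ± 0.26 (SE, adjusted p = 0.0215), and it missed the threshold without control heart 3, control heart 4 or S1Pless heart 1 (adjusted p up to 0.0627). H2-Ea, which encodes the I-E alpha chain and is silent in some mouse strains, is not analysed here. H2 genes differ in sequence between strains, and the animals' H2 haplotypes were not given in the sources used here.

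Cd74, the invariant chain, gave the most reads of the 7 genes. Its level was 179, 136, 140, 97.8 and 160 CPM in control hearts 1 to 5 and 428, 210, 332, 219 and 499 CPM in S1Pless hearts 1 to 5, or 1795 to 2870 reads against 4205 to 10526. S1Pless heart 2, the lowest of its group, was above control heart 1, the highest control. The log2 fold change was 1.25 ± 0.24 (SE, adjusted p = 0.0177). Without control heart 3 the adjusted p was 0.053.

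H2-DMa and H2-DMb1 encode the chains of the peptide editor. H2-DMa had 6.18, 4.19, 5.80, 4.25 and 6.20 CPM in control hearts 1 to 5 and 16.2, 8.01, 9.63, 6.20 and 14.2 CPM in S1Pless hearts 1 to 5. It was the 1 gene of the 7 whose groups overlapped, since S1Pless heart 4 stood just under control heart 5. Its log2 fold change of 1.03 ± 0.24 (SE, adjusted p = 0.0317) was the smallest of the 7, and it missed the threshold in 6 of the 10 fits that leave out a heart (adjusted p up to 0.0882). Brd2, on the opposite strand, stood at 90.6 ± 3.66 and 95.4 ± 6.19 CPM (log2 fold change 0.07, adjusted p = 0.629).

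For H2-DMb1 the values were 3.88, 3.39, 2.82, 3.16 and 4.02 CPM in control hearts 1 to 5 and 10.8, 5.85, 4.82, 5.80 and 11.1 CPM in S1Pless hearts 1 to 5, from 53 to 72 and 83 to 240 reads. S1Pless hearts 1 and 5 were high and the other 3 lower, all above the controls. The log2 fold change was 1.16 ± 0.24 (SE, adjusted p = 0.0201), with adjusted p of 0.0603 and 0.0584 without control hearts 3 and 4. Of its 50-base windows 22.7% are also found in H2-DMb2, whose promoter is the last of the sequences above, so how reads were divided between the copies is uncertain. H2-DMb2 itself had 6 to 9 reads in controls and 6 to 17 in S1Pless hearts and was below the filter.

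**Figure D1:**
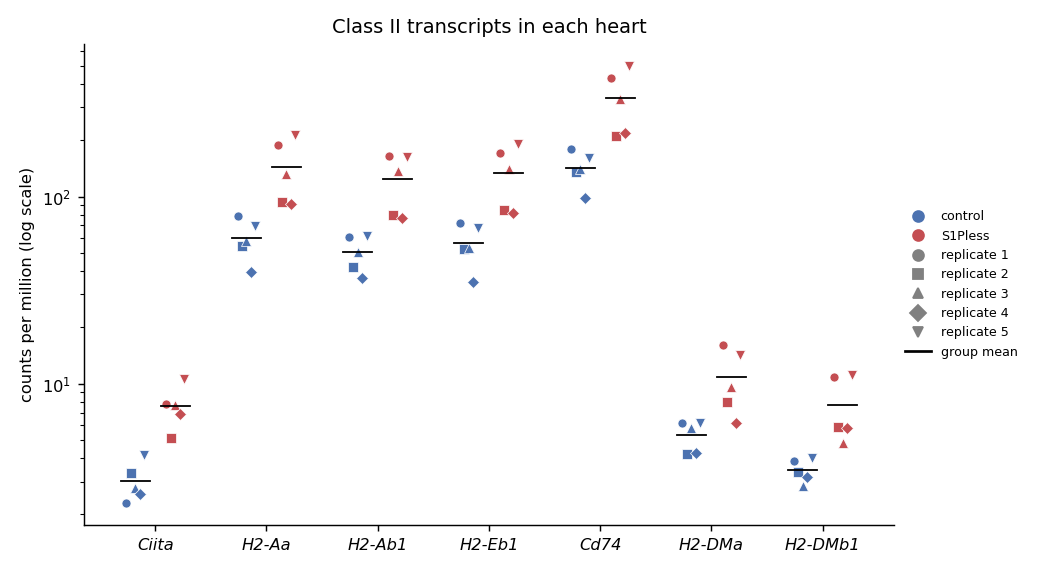
Level of the 7 class II genes in each heart, in CPM on a log axis, for 5 control (blue) and 5 S1Pless (red) hearts. Symbols mark the replicate and bars the group mean; only H2-DMa overlaps between the groups, where S1Pless heart 4 stands at 6.20 CPM.

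Together the 7 genes took 0.0216 to 0.0363% of the counts in control libraries and 0.0485 to 0.1195% in S1Pless libraries. Within this sum the shares of the 4 abundant genes varied little from heart to heart, and those of the scarce ones varied more. Cd74 gave 42.9 to 46.0% of class II reads over all 10 hearts, H2-Aa 17.2 to 19.5%, H2-Eb1 16 to 18.5% and H2-Ab1 14.3 to 18%. H2-DMa gave 1.26 to 1.94%, H2-DMb1 0.631 to 1.44% and Ciita 0.571 to 1.41%.

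**Figure D2:**
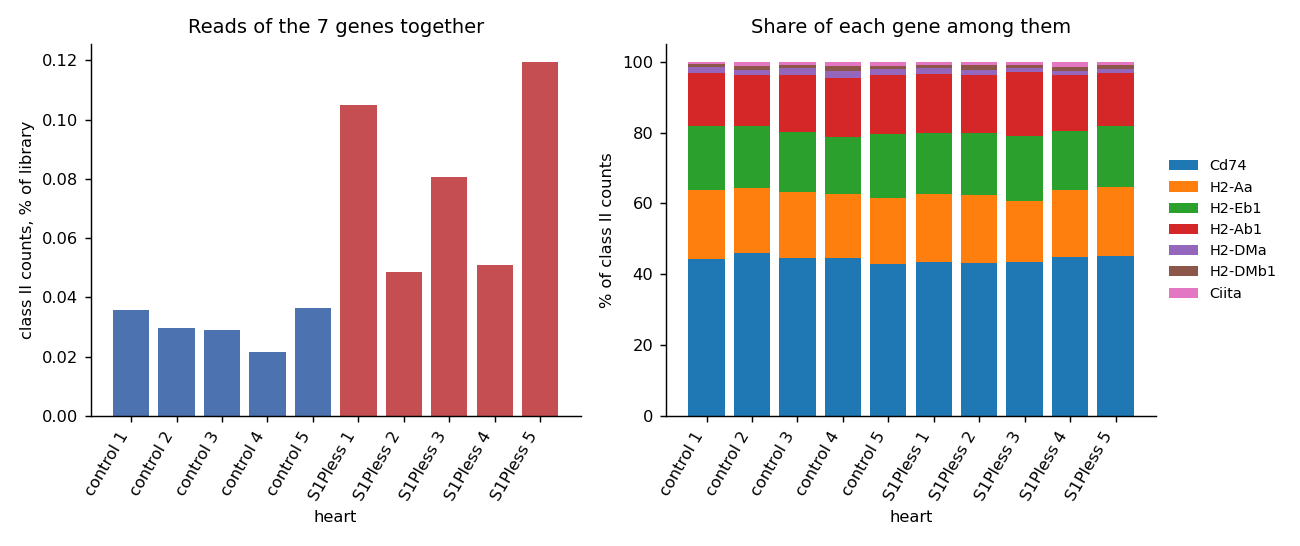
Left, counts of the 7 class II genes as a percentage of each library; right, the share of each gene among those counts, for each of the 10 hearts. The sum differs between groups, from at most 0.0363% in controls to at least 0.0485% in S1Pless hearts, while Cd74 stays between 42.9 and 46.0% of it.

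Levels of different genes were compared per kilobase of transcript (CPM per kb, longest CCDS transcript in GENCODE M21). In controls, Cd74 stood at 101 ± 21.6 CPM per kb, H2-Aa at 53.1 ± 13.3, H2-Ab1 at 41.6 ± 9.13 and H2-Eb1 at 33.6 ± 8.90 (mean ± SD, n = 5). The DM chains were lower than these, H2-DMa at 3.21 ± 0.62 and H2-DMb1 at 2.46 ± 0.36 CPM per kb, and Ciita was lowest at 0.503 ± 0.12. Neighbours among the 3 H2 chains are within each other's spread. With the length of all annotated exons instead, H2-Eb1 (28.9 CPM per kb) came before H2-Ab1 (19.6) and H2-Aa (15.8), and H2-DMb1 before H2-DMa, so only the order of Cd74, the chains as a group, the DM pair and Ciita held under both lengths. S1Pless hearts kept that order, from 1.27 ± 0.33 CPM per kb for Ciita to 240 ± 90.1 for Cd74.

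Ratios within a heart, which need no scaling factor, asked whether the genes changed by unequal amounts. None of the 12 ratios examined passed after adjustment over the 12 (two-sided exact permutation test over all arrangements of the 10 hearts, in which the smallest possible p is 0.00794). Even at that p, 1 ratio alone could not pass after adjustment, so the absence of passes does not show equal changes. Relative to H2-Ab1, the log2 ratio differed between S1Pless and control hearts by -0.04 for H2-Aa (95% interval -0.26 to 0.16), by -0.04 for H2-Eb1 (-0.21 to 0.14) and by -0.06 for Cd74 (-0.27 to 0.13). For Ciita the interval was wider, with a difference of 0.07 (-0.49 to 0.69). H2-DMa to H2-Ab1 was the 1 ratio between class II genes with an unadjusted p below 0.05, with a difference of -0.30 (-0.53 to -0.03, exact permutation p = 0.0238, adjusted p = 0.143). The DM chains differed from each other by 0.12 (-0.32 to 0.58).

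The hearts of 1 group also differed among themselves, and the genes did so together. After subtracting group means of log2 CPM, H2-Aa, H2-Ab1, H2-Eb1 and Cd74 correlated over the 10 hearts with r of 0.95 to 0.99 and rho of 0.93 to 0.99 in all 6 pairs. Adjusted permutation p, over 28 relations, lay between 0.00194 and 0.00292, and r was 0.93 to 0.99 without the 2 hearts farthest from the median. These 4 genes were high in S1Pless hearts 1 and 5 and low in S1Pless hearts 2 and 4 and in control heart 4. They were measured in the same libraries.

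Pairs with H2-DMa or H2-DMb1 were looser, with r of 0.64 to 0.93, and 4 of these 9 pairs passed. Without the 2 farthest hearts their r ran from 0.05 to 0.89, so part of the relation rests on those hearts. Ciita followed the other 6 with r of 0.46 to 0.63 and rho of 0.55 to 0.62, and none of these relations passed (exact permutation p = 0.0766 to 0.241, adjusted p = 0.246 to 0.349 over 13 relations). Leaving out control heart 1 and S1Pless heart 5 gave r of 0.43 to 0.79. Control heart 1 had the fewest Ciita reads, 35, while it was highest or second highest of the controls in each of the other 6 genes.

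**Figure D3:**
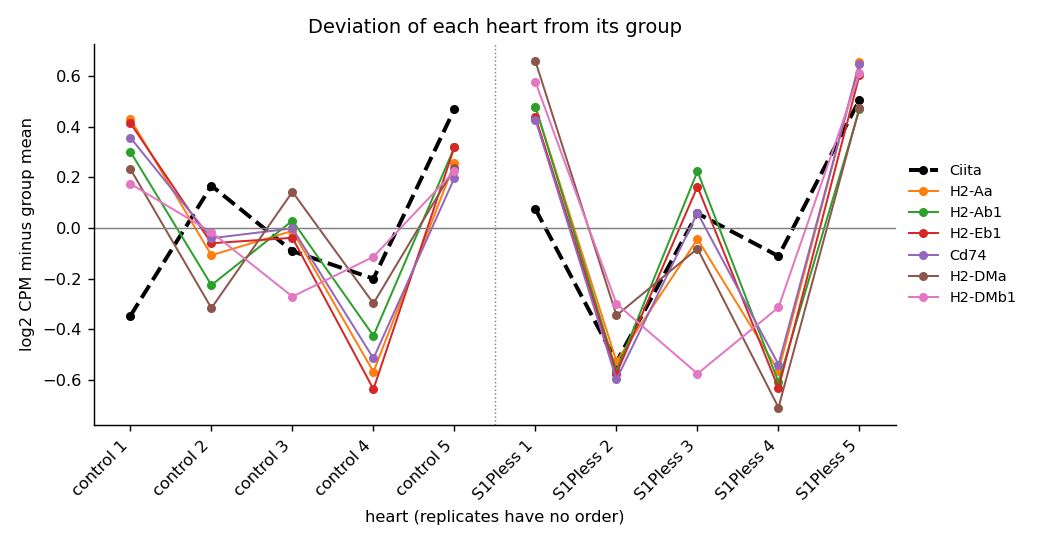
Deviation of each heart from its group mean in log2 CPM for the 7 class II genes (lines join the values of 1 gene; the replicates have no order). H2-Aa, H2-Ab1, H2-Eb1 and Cd74 lie almost on each other, and Ciita (dashed) departs from them most in control heart 1.

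Of other genes, the 10 that followed the mean deviation of the 7 class II genes most closely among 11976 genes ranked had r of 0.90 to 0.96 against a median of 0.00 over all ranked. They were Neurl3, Igsf9, Tlr1, Adamts14, Slamf8, Il2rg, Csf2ra, Mx2, Cpne8 and Klra2, in that order. Of the 10, 3 also rose, where 3.4% of all genes tested did. These 3 were Neurl3, which encodes a RING-type ubiquitin ligase (log2 fold change 1.26 ± 0.15, adjusted p = 0.00156), Il2rg, the common cytokine receptor gamma chain (0.91 ± 0.13, adjusted p = 0.00605), and Slamf8, a surface receptor of myeloid cells (1.86 ± 0.42, adjusted p = 0.0281). Cpne8, also among the 10, had a log2 fold change of 0.11 ± 0.11 (adjusted p = 0.603). The 10 genes were picked as the highest of 11976, so the size of their r is in part set by that choice. These r are descriptions over 10 hearts, in libraries that share depth and composition with the class II genes.

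Of the other class II genes listed, H2-Ob, a chain of the DM inhibitor H2-DO, had 14 to 29 reads in controls and 26 to 65 in S1Pless hearts. Its log2 fold change was 0.88 ± 0.26 and missed the threshold (adjusted p = 0.0823). H2-Oa and H2-Eb2 are not analysed here.

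The factors that hold CIITA at the promoters did not pass the test in either direction. This list had 11 genes, among them the RFX subunits Rfx5, Rfxank and Rfxap, the NF-Y subunits Nfya, Nfyb and Nfyc, and the histone acetyltransferases Crebbp and Ep300, with a median log2 fold change of -0.05. Nfya had the smallest p, with 18.9 to 23.4 CPM in controls and 23.6 to 27.3 in S1Pless hearts. Those ranges did not overlap, as in 4.53% of all genes tested, but the log2 fold change of 0.24 ± 0.08 missed the threshold (adjusted p = 0.122). Creb1 was next with 0.21 ± 0.09 (adjusted p = 0.226), and Rfx5 had -0.03 ± 0.11.

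Of 13 measured genes that act upstream of Ciita, 3 rose and none fell (3.4% and 0.316% of all genes tested), with a median log2 fold change of 0.47. Spi1, the myeloid factor PU.1, had 5.20, 6.18, 5.11, 4.74 and 4.69 CPM in control hearts 1 to 5 and 9.70, 8.46, 8.13, 8.01 and 16.6 CPM in S1Pless hearts 1 to 5. The groups did not overlap, as in 4.53% of all genes tested, and S1Pless heart 5 stood apart from its group (log2 fold change 0.98 ± 0.20, adjusted p = 0.0193). Irf8, a factor of macrophages and dendritic cells, differed by 0.84 ± 0.18 (adjusted p = 0.0227), with control heart 5 at 7.99 CPM just above S1Pless heart 2 at 7.71.

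Ifngr1, the ligand-binding chain of the interferon gamma receptor, had 61.8 to 78.3 CPM in controls and 80.3 to 101 in S1Pless hearts, a log2 fold change of 0.42 ± 0.09 (adjusted p = 0.028). The receptor's other chain, Ifngr2, had a log2 fold change of -0.19 ± 0.11 (adjusted p = 0.349). Irf1 was at 0.52 ± 0.15 (adjusted p = 0.0679), and Ifng itself is not analysed here. Without control heart 3 or control heart 4 none of the 13 passed, and only Spi1 did without control heart 2 or S1Pless heart 5.

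Genes induced by interferon gamma gave 2 calls among 13, Nlrc5 and Cxcl9, both higher (3.4% of all genes tested rose), and a median log2 fold change of 0.68. Nlrc5, a relative of CIITA that drives class I genes, had 11.8, 11.6, 7.88, 11.9 and 15.3 CPM in control hearts 1 to 5 and 43.0, 22.9, 16.02, 19.8 and 33.8 CPM in S1Pless hearts 1 to 5. All S1Pless hearts were higher, as in 4.53% of all genes tested, and hearts 1 and 5 were the highest of them (1.22 ± 0.25, adjusted p = 0.0224). Cxcl9, a chemokine for T cells, differed by 1.198 ± 0.30 (adjusted p = 0.0433). The other 11, such as Tap1 (0.93 ± 0.25, adjusted p = 0.0644) and Psmb8 (0.77 ± 0.23, adjusted p = 0.089), had positive fold changes and missed the threshold. Without control heart 3, control heart 4 or S1Pless heart 5 no gene of this list passed.

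In the processing of antigen, 1 gene of 10 rose, against 3.4% of all genes tested. Ctss, cathepsin S, which cuts the invariant chain, had 21.3, 17.2, 18, 13.8 and 18.99 CPM in control hearts 1 to 5 and 36.7, 28.1, 38.5, 29.7 and 68.1 CPM in S1Pless hearts 1 to 5. The groups did not overlap, as in 4.53% of all genes tested, and S1Pless heart 5 stood far above its group. The log2 fold change was 1.17 ± 0.22 (adjusted p = 0.0157), close in size to that of Cd74, and it passed without any single heart. The other lysosomal proteases lay near 0, with Ctsl at 0.07 ± 0.10, Ctsb at -0.03 ± 0.11 and Ctsd at -0.22 ± 0.22. The list's median was 0.11. March1, a ubiquitin ligase that removes class II from the surface, had 0.84 ± 0.36 (adjusted p = 0.207), with control heart 1 at 5.06 CPM apart from the other controls at 1.36 to 1.84. Without control heart 1 it passed.

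Co-stimulatory molecules give the signal that T cells need beside the peptide, and 1 of 5 tested rose, against 3.4% of all genes tested. Cd40 had 2.24 to 3.76 CPM in controls and 3.77 to 7.44 in S1Pless hearts, a log2 fold change of 1.04 ± 0.20 (adjusted p = 0.0173). S1Pless heart 3 only just cleared the highest control. Cd80 (0.77 ± 0.26, adjusted p = 0.111) and Cd86 (0.82 ± 0.24, adjusted p = 0.0809), the ligands of CD28, missed the threshold with overlapping groups.

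**Figure D4:**
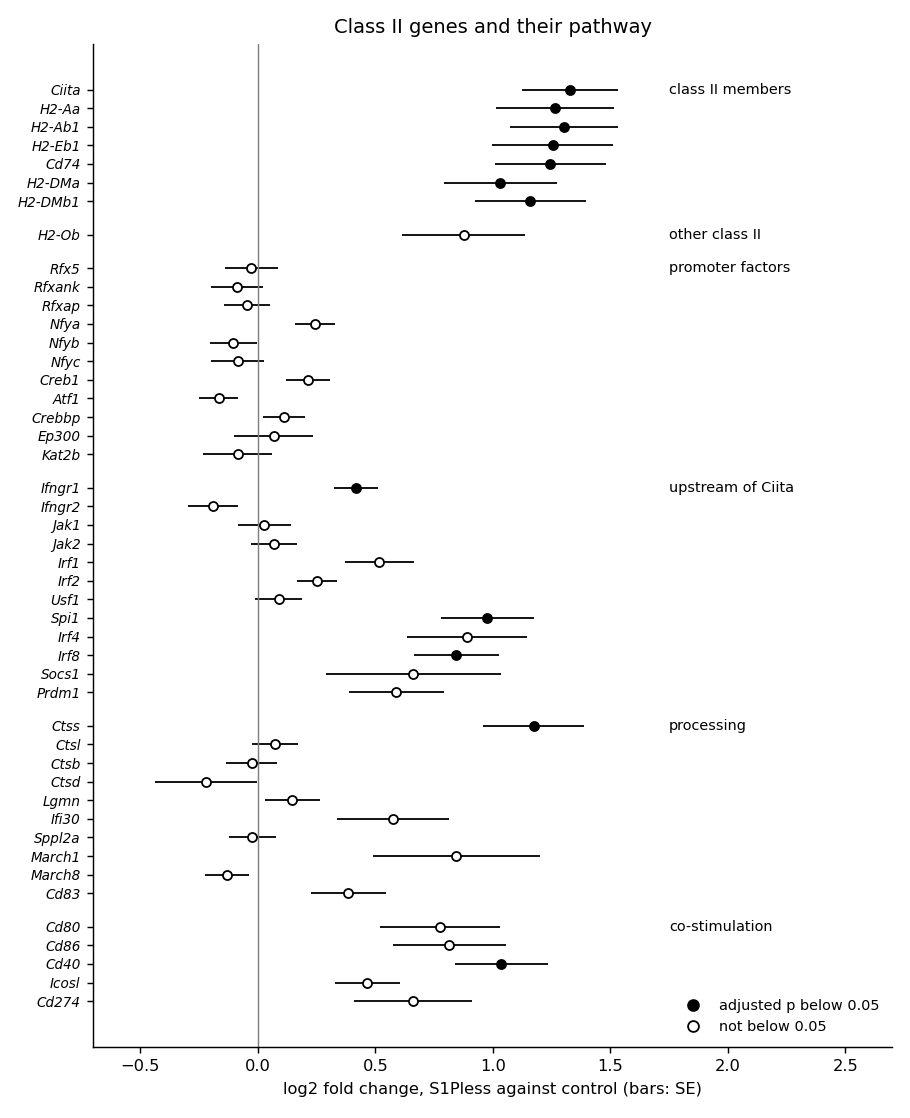
Log2 fold change of S1Pless against control hearts, with SE, for the 7 class II genes and for tested genes of 5 pathway lists; filled points have an adjusted p below 0.05. The 7 class II genes sit between 1.03 and 1.33, the promoter factors around 0, and Ctss and Cd40 at 1.17 and 1.04.

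The other lists hold markers of cells that carry class II molecules, and their counts stand beside the 3.4% of all genes tested that rose. Of 14 macrophage markers 5 rose (Aif1, Csf1r, C1qa, C1qc and Mrc1), all 14 fold changes were positive, and the median log2 fold change was 0.83. The summed level of the list was 251.6 to 319 CPM in controls and 387 to 818 in S1Pless hearts. Csf1r, the receptor that macrophages need to live, had 37.95, 41.4, 47.5, 39.6 and 40.1 CPM in control hearts 1 to 5 and 60.8, 56.4, 71.5, 63.8 and 127 CPM in S1Pless hearts 1 to 5 (0.88 ± 0.19, adjusted p = 0.0255). S1Pless heart 5 was far above the other 4. Cd68 had 0.65 ± 0.21 (adjusted p = 0.0978) and Adgre1, which encodes F4/80, 1.11 ± 0.38 (adjusted p = 0.131). Adgre1 stood at 57.7 CPM in S1Pless heart 5 and at 13.2 to 19 CPM in the other 4, and without that heart its log2 fold change was 0.51 ± 0.13 (adjusted p = 0.0765). Without any 1 of control hearts 2, 3, 4 and 5, only Aif1 passed.

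Dendritic cell markers gave 4 rises among 7 tested (3.4% of all genes tested rose), with a median log2 fold change of 1.25. Itgax, which encodes CD11c, had 0.921, 1.02, 1.07, 1.04 and 1.45 CPM in control hearts 1 to 5 and 4.60, 1.90, 2.90, 2.47 and 4.503 CPM in S1Pless hearts 1 to 5. Every S1Pless heart was higher, as in 4.53% of all genes tested. S1Pless hearts 1 and 5 were the highest, at more than 4 CPM, as they were for the class II chains (1.57 ± 0.27, adjusted p = 0.0116). Macrophages can also express Itgax. Clec9a (1.51 ± 0.33, adjusted p = 0.0245) and Batf3 (1.25 ± 0.25, adjusted p = 0.0201), which mark the cross-presenting subset, rose from 4 to 14 and 11 to 14 reads to 25 to 53 and 20 to 44 reads. Fscn1, a marker of mature dendritic cells that other cells express too, differed by 0.72 ± 0.15 (adjusted p = 0.0205). Flt3, the growth factor receptor of dendritic cells, was below the filter with 3 to 7 reads in controls and 8 to 20 in S1Pless hearts. The list summed to 63.1 to 81.3 CPM in controls and 93.5 to 130 in S1Pless hearts. Itgax, Clec9a, Batf3 and Flt3 made up only a small part of that sum. Of the list's genes 2 and 1 passed without control hearts 3 and 4. With genes kept only at 1 CPM or more in 5 libraries, 3 passed and the median was 1.12.

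Of the monocyte list 3 of 6 rose (3.4% of all genes tested), with a median of 1.17. Ccr2, the chemokine receptor of recruited monocytes, had 3.98 to 9.14 CPM in controls and 14.0 to 34.7 in S1Pless hearts (1.64 ± 0.27, adjusted p = 0.0119). It was the 1 gene of the list that passed without control heart 2, 3, 4 or 5. Chil3 (2.11 ± 0.45, adjusted p = 0.024) and Plac8 (1.73 ± 0.43, adjusted p = 0.0397) rose from few reads. The count and the median depend on the low-count filter. With genes kept only at 1 CPM or more in 5 libraries, Ccr2 alone was called and the list's median was 0.493. In that fit 429 of 12327 genes rose. The summed level was 53.9 to 75.0 CPM in controls and 76.1 to 177 in S1Pless hearts.

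None of the 5 tested B cell genes rose and 1 fell (3.4% and 0.316% of all genes tested), with a median of -0.14. With genes kept only at 1 CPM or more in 5 libraries, none passed in either direction and the median was 0.51. The direction of the list therefore depends on the low-count filter. The list summed to 13.6 to 17.6 CPM in controls and 12.6 to 23.8 in S1Pless hearts. The defining markers were near 0 in both groups: Cd79a had 1 to 10 reads in controls and 0 to 18 in S1Pless hearts, and Ms4a1 had 0 to 9 and 1 to 16. In both of them S1Pless heart 1 was highest of its group and S1Pless heart 5, which led in Cd74, had 1 read. Ighd, the IgD heavy chain of mature naive B cells, fell by 1.59 ± 0.28 on the log2 scale (adjusted p = 0.0136), from 15 to 38 reads to 5 to 14. Ighm had 0.50 ± 0.16 (adjusted p = 0.102) and passed as higher without S1Pless heart 2 and with library totals alone.

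**Figure D5:**
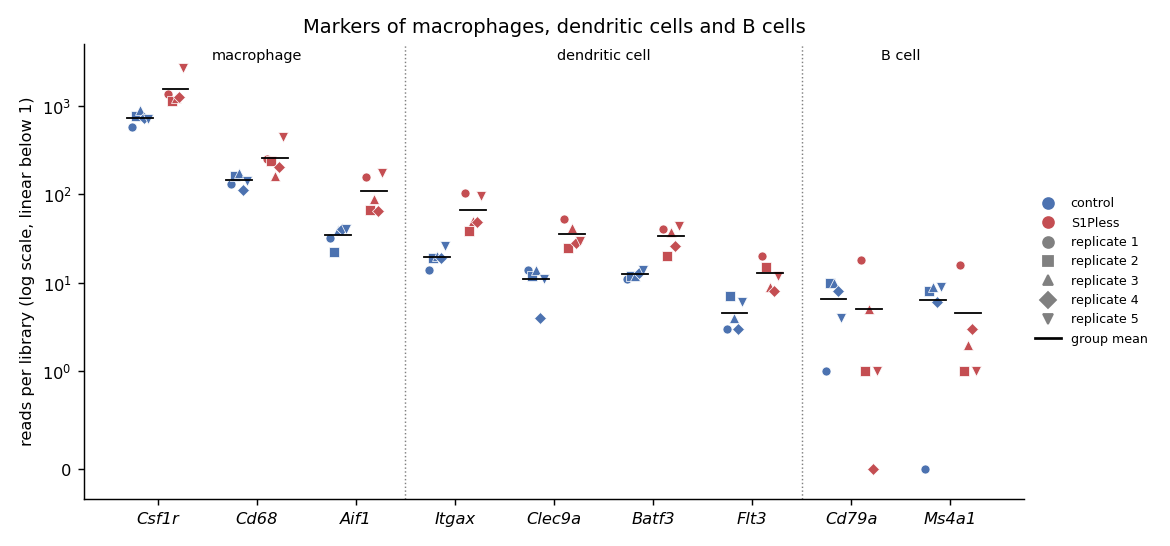
Reads per library for markers of macrophages, dendritic cells and B cells in 5 control (blue) and 5 S1Pless (red) hearts, on a log axis that is linear below 1; bars are group means. Itgax, Clec9a, Batf3 and Flt3 are higher in every S1Pless heart than in any control, while Cd79a and Ms4a1 overlap between groups. By CPM, 4.53% of all genes tested were higher in every S1Pless heart.

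Lists of other cell types were counted in the same way, beside the 3.4% of all genes tested that rose. In the endothelial list 1 of 8 rose, Erg, by 0.38 ± 0.09 (adjusted p = 0.0332), with a median of 0.21 and a summed level of 1140 to 1303 CPM in controls and 1212 to 1456 in S1Pless hearts. Of 6 fibroblast genes Dpep1 rose by 0.55 ± 0.14 (adjusted p = 0.0454), with a list median of 0.14. Erg missed the threshold in 7 and Dpep1 in 8 of the 10 fits that leave out a heart. None of 5 T cell genes, 2 genes of natural killer and innate lymphoid cells or 3 neutrophil genes passed, with medians of 0.70, 0.25 and 0.69. By unadjusted p below 0.05, 1695 genes (13%) were higher over the whole table. The smallest p in these lists were those of Cd4 (0.99 ± 0.30, adjusted p = 0.086), Il7r (0.51 ± 0.37, adjusted p = 0.48) and Csf3r (0.69 ± 0.34, adjusted p = 0.281).

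H2-Ab1 was also set against cell type markers in the same heart. The log2 ratio of H2-Ab1 to Itgax differed between S1Pless and control hearts by -0.24 (95% interval -0.64 to 0.16) and that to Flt3 by 0.04 (-0.75 to 0.77). Flt3 was below the filter, and with a prior count of 2 its difference was 0.275. To Csf1r it differed by 0.44 (-0.26 to 1.13, exact permutation p = 0.151) and to Cd68 by 0.65 (-0.04 to 1.41, exact permutation p = 0.0556). The ratios to Pecam1 of endothelial cells and to Cd79a of B cells were higher in S1Pless hearts, by 0.95 (0.31 to 1.54, exact permutation p = 0.0159) and 2.58 (0.30 to 4.96, exact permutation p = 0.0397). Neither passed after adjustment (adjusted p = 0.143 and 0.159), where 1 ratio alone could not pass, and Cd79a rests on 0 to 18 reads. The part that these cells have in the class II result was not tested.

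From heart to heart within groups, H2-Ab1 went closest with Itgax (r = 0.79, rho = 0.78, exact permutation p = 0.0394, adjusted p = 0.246), and r was 0.55 without S1Pless hearts 1 and 5. With Csf1r and with Cd68 r was 0.44, and that with Cd68 was 0.09 without those hearts. None of the relations of H2-Ab1 given here passed after adjustment over the 13 relations.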

How the data were processed

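RNA of 10 mouse hearts, 5 per genotype, was analysed. Libraries were made with a stranded mRNA kit from TRIzol-extracted total RNA, per the labels' protocols. The authors deposited raw read counts per Ensembl gene. Per the submitters' processing notes, STAR 2.7.8a and featureCounts 2.0.1 were used with GRCm39. Annotation release, strand setting and multi-mapping rule were not given in the sources used here, so counts of gene copies and overlapping genes are uncertain. Replicates were numbered in accession order.

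The genes and lists were chosen with earlier results of these data known. The counts were fitted with edgeR 4.0.16 in R 4.3.3: filterByExpr (minimum count 10), TMM, robust glmQLFit and glmQLFTest, two-sided, Benjamini-Hochberg over 12992 genes, threshold 0.05. The SE is the log2 fold change over the root of F. The biological coefficient of variation was 15.2%. Ratios used a prior count of 0.5, and correlations used log2 CPM (prior count 2). Exact tests used Python 3.11.15 and scipy 1.17.1. Scripts were tested on simulated data. The 15 relations among the 6 genes beside Ciita, and the exon length alternative, were added after seeing the data. Alternatives used DESeq2 1.42.0 and limma 3.58.1, other scalings and filters, covariates and leaving out each heart. Symbols, overlaps and lengths came from GENCODE M21, a build before that of the counts, whose coordinates are left out.

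Named are the 7 genes, up to 4 called members of each of 16 lists by p-value or else up to 2 with the smallest p, defining markers of macrophages, dendritic and B cells, and the 10 genes most like the class II genes (mean over 1 CPM). Other names were chosen after their values were seen. Results of 2 list genes are not reported here.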

Additional observations from a re-analysis of the deposited data

Results flagged for a closer look

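In 160 groups of 5 values checked, 17 had a heart whose gap to the nearest of the others exceeded 0.71 of the group's range (Dixon's 95% critical value). For independent, normally distributed values chance gives this in about 1 group in 20. The values here are mostly CPM of genes measured in the same hearts, so the groups are not independent and that rate is only a guide. S1Pless heart 5 was that heart in 11 of them. Of macrophage markers, Adgre1 was 57.7 CPM there against 13.2 to 19 in the other S1Pless hearts, Csf1r 127 against 56.4 to 71.5, C1qc 118 against 55.1 to 72.6, Mrc1 84.9 against 44.5 to 52.1 and Cd68 21.2 against 9.29 to 11.8 CPM. The monocyte gene Chil3 was 2.56 against 0.756 to 1.17 CPM and Spi1 16.6 against 8.01 to 9.70. Among processing genes Ctss was 68.1 against 28.1 to 38.5, Ctsb 616 against 430 to 477 and March1 7.54 against 2.87 to 3.70 CPM. The log2 ratio of H2-Eb1 to H2-Ab1 in that heart was 0.235 against 0.0385 to 0.0889. None of the 7 class II genes had such a heart in either group.

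Without S1Pless heart 5, 6 of the 7 class II genes passed the test, with log2 fold changes from 0.91 for H2-DMa, which did not pass, to 1.18 for H2-Ab1, and the same 5 macrophage markers did, with a list median of 0.56. In that fit 221 of 13046 genes tested rose. Adgre1 then had a log2 fold change of 0.51 in place of 1.11, and it passed with neither set of hearts.

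In S1Pless heart 1, Ms4a1 was 0.722 against 0.0474 to 0.151 CPM. Among controls, heart 1 stood apart in March1 (5.06 against 1.36 to 1.84 CPM) and Ifngr1 (78.3 against 61.8 to 66 CPM). Control heart 2 did so in Aif1 (1.18 against 2.08 to 2.29 CPM) and Csf3r (9.30 against 2.46 to 3.62 CPM), and control heart 5 in Itgax (1.45 against 0.921 to 1.06 CPM).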

How the results depend on the processing

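The 7 class II genes were higher in S1Pless hearts in each of the 11 other fits and in each fit that left out a heart. Of 77 values from other fits 63 kept their side of the threshold, as did 56 of 70 with a heart left out, and none changed direction. The number of class II genes passing was 7 in the reported fit and 2 to 7 with a heart left out. It was 6 with limma-voom (517 of 12992 genes rose) and 6 with the title-number series as a covariate (321 of 12992 rose). H2-DMa missed the threshold in both. The number was 1 with neighbouring title numbers as a block (0.616% of all genes rose) and 1 with the haemoglobin share as a covariate (0.146%). In those last 2 fits Ciita had log2 fold changes of 1.24 and 1.47 (adjusted p = 0.0232 and 0.0467), and the other 6 genes 0.94 to 1.17 and 0.89 to 1.23. Control hearts 3 and 4 share a block level with no S1Pless heart, so they add nothing to the blocked difference. Each covariate also uses residual degrees of freedom. What lowered the counts in these fits was not tested.

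All genes called, 483 in the reported fit, numbered 1433 with library totals alone (1420 higher, 13 lower), 1028 with DESeq2 (764 higher, 264 lower), which made more false calls than edgeR on simulated data, 88 with the block, 20 with the haemoglobin covariate and 126 to 589 with a heart left out. Called members of the other lists, 22 in the reported fit, numbered 54, 42, 2, 0 and 6 to 30 in the same order. With the haemoglobin covariate, edgeR gave 2121 genes at an unadjusted p below 0.05. Library totals alone moved the median log2 fold change of all genes by 0.14, and the class II genes were then at 1.18 to 1.47. The number of ratios and of planned relations passing was 0 in each alternative run. For the ratios, 1 alone could not have passed. The labels give the groups no shared replicate numbers, and the blocked fit above, by neighbouring title numbers, is the only matched analysis that was run. What the title numbers mark was not given in the sources used here. The cause of these changes was not tested. Depth limits Ciita, H2-DMa and H2-DMb1 in controls to 35 to 111 reads each.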
